A study of Mus musculus with 11 samples.

Results

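The caveola genes analysed here are Cav1, Cav2, Ptrf, Sdpr, Prkcdbp, Ehd2 and Pacsin2, chosen by name because their products coat, stabilise or shape caveolae. All 7 were found among the 12787 genes measured by RNA sequencing in the gonadal white adipose tissue (WAT) of 11 mice. The mice were fed a high fat diet alone (HFD control mice) or with iodomethylcholine (IMC-treated mice), an inhibitor of a gut bacterial enzyme. In IMC-treated mice, 6 of the 7 genes were expressed 1.33-fold to 1.77-fold higher than in HFD control mice, and in none of these 6 genes did the groups overlap. All 6 passed the test across all genes (limma, Benjamini-Hochberg adjusted p under 0.05, which is what called means below). Among all genes, 20% were called higher with IMC and 21% were called lower, and in 12.5% every IMC-treated mouse lay above every HFD control mouse. Pacsin2 was the exception, and its level in IMC-treated mice was 0.966 times that in HFD control mice (95% interval 0.898 to 1.04). Cav1 rose more than every other member when each was compared with it in the same mouse, although 3 of these 6 differences lost their call when some single mice were left out.

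Caveolae are flask-shaped pits of the plasma membrane, rich in cholesterol, and adipocytes and endothelial cells are among the cells that carry the most of them. Caveolins are hairpin-shaped membrane proteins that form the coat, and cavins are cytoplasmic proteins that assemble around the caveolins and stabilise it. EHD2 is an ATPase found at the neck of the pit, and PACSIN2 is an F-BAR protein that binds and bends membrane. In fat cells, caveolae are known as a site of insulin receptor signalling, as a route for lipid at the cell surface and as a store of membrane when the cell is stretched.

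Male C57Bl6/J mice without a transgene or a deletion were used in both groups, and their age is not given in the labels. The HFD control group (n = 5 mice) was fed a 60% high fat diet for 20 weeks. The IMC-treated group (HFD + IMC, n = 6 mice) received the same diet with 0.06% w/w iodomethylcholine, a choline analog that inhibits the bacterial enzyme CutC and so the release of trimethylamine from dietary choline. Each mouse gave 1 mRNA library, another control mouse was dropped by the submitters for quality, and the mice are numbered here in the order of their sample records. The comparison asks how inhibition of microbial choline cleavage altered gene expression in WAT of mice on the HFD.

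Expression is given as log2 CPM, the logarithm of counts relative to library size (CPM) after the authors' upper-quartile scaling, on which a step of 1 is a doubling. The libraries held 22320022 to 25155366 reads on the listed genes, and the 7 members were covered by 2477 to 66254 reads per mouse, so that counting error was smaller than the spread between mice. Groups were compared with limma, and a gene was called at a Benjamini-Hochberg adjusted p under 0.05 over all 12787 genes. The median log2 fold change over all genes was -0.03. The labels name no sequencing batch and do not pair mice of the groups. Mice were housed several to a cage, and the cage of each mouse is not given.

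The 250 bases before the transcription start are shown for 4 members, because these genes differ in what the data show. Cav1 and Cav2 are neighbours on chromosome 6, Ptrf had the highest level after Cav1, and Pacsin2 is the member that did not pass the test. The sequences are those of RefSeq on build GRCm38.p6, the same assembly as the mm10 build used by the authors, and each is written 5′ to 3′ on the strand of its gene. Capitals mark the letters of a CCAAT box, read as CCAAT or in reverse complement as ATTGG, and those of a GC box, read as GGGCGG or in reverse complement as CCGCCC. The Cav1 window is chr6:17306085-17306334 on the plus strand, and the Cav2 window is chr6:17280935-17281184 on the plus strand. The Ptrf window is chr11:100970618-100970867 on the minus strand, and the Pacsin2 window is chr15:83464607-83464856 on the minus strand. The Pacsin2 window is set on the transcript start of the promoter table, which lies just inside the outer end of the gene span given below.
Cav1: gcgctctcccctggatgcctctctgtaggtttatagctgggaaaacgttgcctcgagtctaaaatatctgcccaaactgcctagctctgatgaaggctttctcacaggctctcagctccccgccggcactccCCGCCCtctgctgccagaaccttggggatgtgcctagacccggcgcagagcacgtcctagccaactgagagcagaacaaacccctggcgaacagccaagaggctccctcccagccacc
Cav2: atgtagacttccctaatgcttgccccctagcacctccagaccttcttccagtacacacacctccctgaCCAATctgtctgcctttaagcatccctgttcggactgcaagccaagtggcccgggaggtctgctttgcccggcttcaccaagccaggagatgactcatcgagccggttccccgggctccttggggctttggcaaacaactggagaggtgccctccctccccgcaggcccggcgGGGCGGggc
Ptrf: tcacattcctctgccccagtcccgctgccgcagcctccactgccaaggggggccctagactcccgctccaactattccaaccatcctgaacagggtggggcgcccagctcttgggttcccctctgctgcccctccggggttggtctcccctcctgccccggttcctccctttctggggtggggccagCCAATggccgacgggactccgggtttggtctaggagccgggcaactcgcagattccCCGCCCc
Pacsin2: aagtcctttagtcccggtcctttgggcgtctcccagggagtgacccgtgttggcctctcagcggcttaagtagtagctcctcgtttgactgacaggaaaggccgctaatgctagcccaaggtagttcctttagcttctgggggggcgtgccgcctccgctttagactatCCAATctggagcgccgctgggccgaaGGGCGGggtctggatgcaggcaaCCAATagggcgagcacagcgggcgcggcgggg

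The Cav1 window held the GC box letters in reverse complement 118 bases before the start and no CCAAT. In Cav2, CCAAT lay 182 bases and GGGCGG 9 bases before the start. Ptrf held CCAAT at 63 bases and the reverse complement of the GC box at 7 bases. Pacsin2 held CCAAT at 81 and at 32 bases and GGGCGG at 55 bases, so that Cav2, Ptrf and Pacsin2 held both boxes on either strand. A window was found for 6 of the 7 members, Prkcdbp being the member without an entry, and 5 of the 6 held CCAAT and 5 of the 6 held GGGCGG on either strand. Of 32851 promoter windows of the same length, 33.8% held CCAAT, 32.7% held GGGCGG and 11% held both. Those windows belong to 27025 genes and were not limited to genes measured here. The GC content was 40.4% in the Sdpr window and 58% to 67.6% in the other windows of members, beside a median of 52.4% over all windows. Enrichment was not tested. These matches describe letters in a window, and whether a factor binds there was not tested.

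Cav1 encodes caveolin-1, the main coat protein of caveolae outside muscle, and lies at chr6:17306335-17341328. Its level was 10.20, 10.66, 10.39, 10.43 and 10.65 log2 CPM in the HFD control mice. In the IMC-treated mice the lowest value was 11.17, the median 11.27 and the highest 11.50 log2 CPM. Every IMC-treated mouse was above every HFD control mouse, and the gap of 0.52 between the groups was the widest of the 7 members. The mean was 10.47 ± 0.19 without IMC (SD, n = 5) and 11.29 ± 0.12 with IMC (SD, n = 6). Cav1 was therefore 1.77-fold higher (95% interval 1.53 to 2.04), a log2 fold change of 0.82 ± 0.10 (SE), and it ranked 336 among the 12787 genes by fold (limma, Benjamini-Hochberg adjusted p = 5.96e-05).

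Cav2 encodes caveolin-2, which forms mixed oligomers with caveolin-1. It ends 17204 bases before the start of Cav1, at chr6:17281185-17289130, and no other annotated gene overlaps either of them. HFD control mice had 8.50, 8.83, 8.53, 8.59 and 8.66 log2 CPM of Cav2. IMC-treated mice ranged from 9.09 to 9.35 log2 CPM with a median of 9.21. The groups did not overlap, and the gap between them was 0.27. Cav2 rose 1.51-fold (95% interval 1.36 to 1.68), or 0.59 ± 0.07 (SE) on the log2 scale (limma, Benjamini-Hochberg adjusted p = 6.53e-05).

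**Figure D1:**
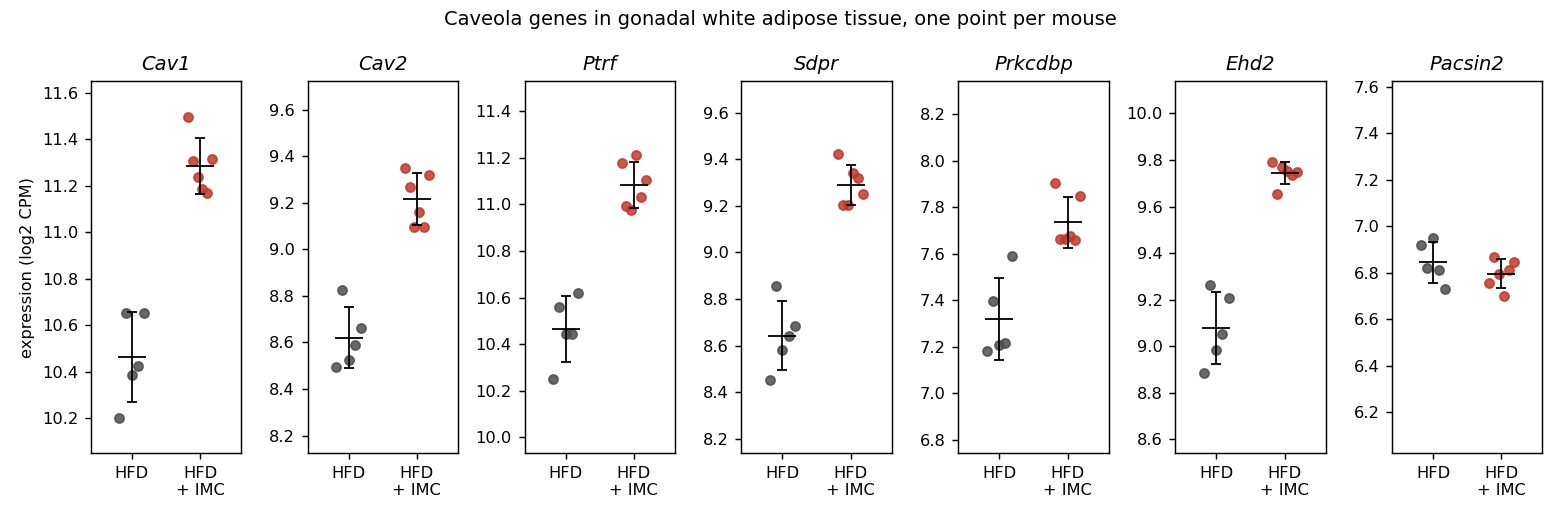
Expression in log2 CPM (vertical axis, the same span in each panel) of the 7 caveola genes in HFD control mice (grey, n = 5) and IMC-treated mice (red, n = 6). Each point is a mouse, and the bar with whiskers is the mean ± SD. The groups are apart in 6 panels and overlap for Pacsin2, where all mice lie between 6.70 and 6.95.

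Ptrf, now named Cavin1, encodes the cavin that is needed for caveolae to form, and lies at chr11:100956736-100970617. Its level was 10.25, 10.56, 10.44, 10.44 and 10.62 log2 CPM in HFD control mice. In IMC-treated mice it ranged from 10.98 to 11.21 log2 CPM, with a median of 11.07. No mouse of the treated group reached down to the control range, and the gap was 0.35. The rise was 1.54-fold (95% interval 1.36 to 1.73), which is 0.62 ± 0.08 (SE) on the log2 scale (limma, Benjamini-Hochberg adjusted p = 0.000112).

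Sdpr (Cavin2) encodes the cavin that binds phosphatidylserine and helps the membrane to curve, and lies at chr1:51289126-51302960. HFD control mice had 8.45, 8.85, 8.58, 8.64 and 8.69 log2 CPM, and IMC-treated mice ranged from 9.20 to 9.42 log2 CPM with a median of 9.29. The groups were 0.35 apart, and Sdpr rose 1.57-fold (95% interval 1.41 to 1.74) in IMC-treated mice. Prkcdbp (Cavin3), whose product binds protein kinase C delta, lies at chr7:105480616-105482197. Its level was 7.18, 7.40, 7.21, 7.22 and 7.59 log2 CPM in HFD control mice. In IMC-treated mice its lowest value was 7.66, its median 7.67 and its highest 7.90 log2 CPM. HFD mouse 5 came within 0.07 of the treated group, so that Prkcdbp had the narrowest gap and the smallest fold of the 6 genes that rose, 1.33-fold (95% interval 1.19 to 1.5). The Benjamini-Hochberg adjusted p by limma was 3.64e-05 for Sdpr and 0.00114 for Prkcdbp.

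Ehd2 lies at chr7:15946963-15967535. HFD control mice had 8.89, 9.26, 8.98, 9.05 and 9.21 log2 CPM. IMC-treated mice lay between 9.66 and 9.79 log2 CPM, with a median of 9.75 and an SD of 0.05, the smallest SD of a member in either group. Ehd2 rose 1.58-fold (95% interval 1.43 to 1.75), and it had the smallest p of the 7 members (limma, Benjamini-Hochberg adjusted p = 3.50e-05). Pacsin2, at chr15:83375607-83464610, was 6.92, 6.82, 6.95, 6.81 and 6.73 log2 CPM in HFD control mice. Its lowest value in IMC-treated mice was 6.70, its median 6.80 and its highest 6.87 log2 CPM, inside or just below the control range. The log2 fold change of Pacsin2 was -0.05 ± 0.05 (SE), with a 95% interval of -0.15 to 0.06 (limma, Benjamini-Hochberg adjusted p = 0.443). That interval does not reach the lower bound of 0.25 on the log2 scale for Prkcdbp.

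In the annotation, Sdpr overlaps 9330175M20Rik, Ehd2 overlaps Gm24576, and Pacsin2 overlaps Gm41368 and Gm5417. None of these 4 genes has a value in the table, and the strand setting of the count is not stated, so any share of their reads in the members was not tested.

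Mice at the extremes of a group were often shared between the 6 genes that rose. HFD mouse 1 had the lowest level of its group for 6 of the 6 genes, while HFD mouse 2 was highest for 4 of them and HFD mouse 5 for 2. In the treated group, HFD + IMC mouse 1 was highest for 5 of the 6, and HFD + IMC mouse 4 for Ptrf. The lowest treated mouse was HFD + IMC mouse 2, 3 or 5, each for 2 genes. The SD within groups was 0.11 to 0.16 log2 CPM for these 6 genes and 0.07 for Pacsin2. The same mice also differed in cell type markers. The mean log2 CPM of 10 adipocyte markers was 8.37 in HFD mouse 1 and also in HFD mouse 3. It was 8.61 in HFD mouse 4, 8.94 in HFD mouse 2 and 9.01 in HFD mouse 5. The highest mean was that of HFD + IMC mouse 1, at 9.88. HFD + IMC mouse 4, with the highest Ptrf, had the lowest adipocyte marker mean of the treated mice, 9.42.

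Levels of different genes were compared per kilobase of annotated exon, since longer transcripts give more reads. Cav1 had the highest level of the 7, with 413 ± 54.4 CPM per kb without IMC (SD, n = 5) and 727 ± 62.2 with IMC (SD, n = 6). Ptrf was next, at 395 ± 38.1 CPM per kb in HFD control mice and 606 ± 41.5 in IMC-treated mice. In HFD control mice their ranges overlapped, from 342 to 468 CPM per kb for Cav1 and from 339 to 439 for Ptrf, so these neighbours were not apart across mice, while the ratio of Cav1 to Ptrf within a mouse was 1.003 to 1.11. In IMC-treated mice they were apart, with 669 CPM per kb in the lowest mouse for Cav1 and 661 in the highest for Ptrf. By mean level over all mice, Cav1 ranked 46 and Ptrf 54 of the 12710 genes with a known exon length.

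The other members formed a lower tier. Sdpr was at 131 ± 13.6 CPM per kb in HFD control mice and 205 ± 12.3 in IMC-treated mice. Cav2 had 118 ± 11.1 and 179 ± 13.9 CPM per kb, Ehd2 had 106 ± 11.4 and 167 ± 5.39, and Prkcdbp had 96.6 and 129 with ranges of 87.3 to 116 and 122 to 144, in the same order of groups. The exon length used for Prkcdbp, 1662 bases, exceeds its RefSeq gene span of 1582 bases. Its level per kb may therefore be understated, and its place in this tier is uncertain. Differences between neighbours in this tier were about as large as the SD between mice in HFD control mice, and in IMC-treated mice that between Cav2 and Ehd2 was smaller than the SD of Cav2. Pacsin2 was far below, at 23.5 ± 1.43 CPM per kb in HFD control mice and 22.7 ± 0.95 in IMC-treated mice, rank 2134.

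**Figure D2:**
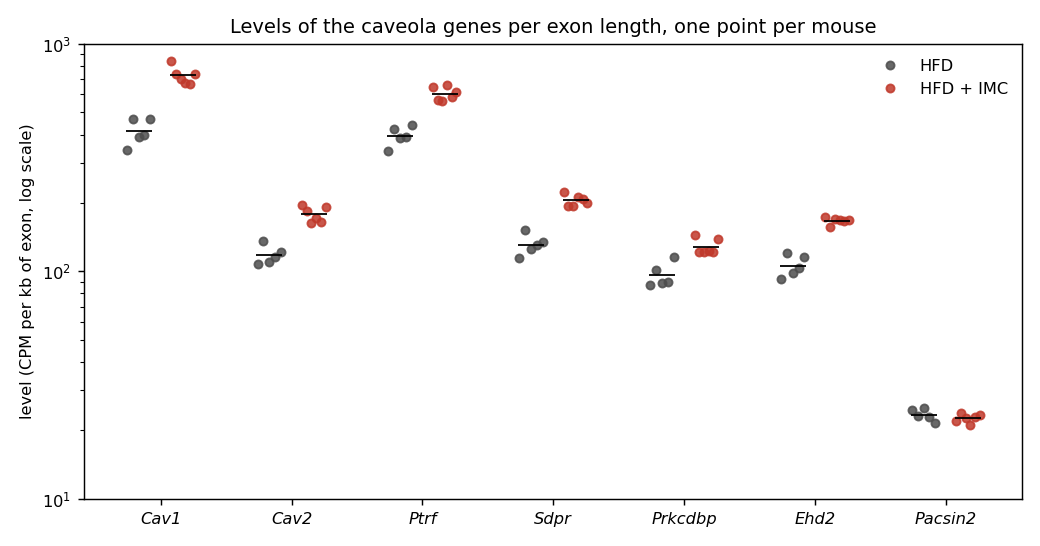
Level of each caveola gene in CPM per kb of exon (vertical axis, log scale) in HFD control mice (grey, n = 5) and IMC-treated mice (red, n = 6). Points are mice and the bar is the group mean. Cav1 and Ptrf form an upper tier from 339 to 839 CPM per kb, and Pacsin2 lies between 21.2 and 25.2 in all mice.

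The proportions of the coat genes differed between the groups. Per kilobase, Cav1 exceeded Cav2 by a factor of 3.49 ± 0.25 without IMC (SD, n = 5) and of 4.07 ± 0.18 with IMC (SD, n = 6). The ratio of Cav1 to Ptrf was 1.04 ± 0.05 in HFD control mice and 1.20 ± 0.11 in IMC-treated mice. The ratio of Ptrf to Sdpr stayed close, at 3.01 ± 0.18 in HFD control mice and 2.95 ± 0.12 in IMC-treated mice, a difference smaller than either SD. Ptrf to Prkcdbp was 4.11 ± 0.26 in HFD control mice and 4.72 ± 0.34 in IMC-treated mice. The size of this ratio rests on the exon length used for Prkcdbp, but its relative change between the groups does not. Cav1 to Pacsin2 moved the most, from 17.8 ± 3.25 in HFD control mice to 32.1 ± 3.07 in IMC-treated mice.

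Each member was then compared with Cav1 in the same mouse, as the difference of their log2 CPM, which does not depend on the scaling of the library. The 6 differences share Cav1 and are not independent of each other. Relative to Cav1, Prkcdbp fell by 0.40 on the log2 scale and Cav2 by 0.23. Pacsin2 fell by 0.87 relative to Cav1, which itself rose by 0.82. For these 3 members the groups did not overlap, and the p was 0.00216, the smallest that the 462 splits of 5 and 6 mice can give (two-sided exact permutation test, Benjamini-Hochberg adjusted p = 0.00433 over the 6 differences).

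The differences of the remaining members were smaller and their groups overlapped. Ptrf minus Cav1 was -0.002 ± 0.06 without IMC (SD, n = 5) and -0.20 ± 0.13 with IMC (SD, n = 6) (exact permutation test, p = 0.0195, adjusted p = 0.0260). Ehd2 fell by 0.16 relative to Cav1 (exact permutation test, p = 0.0216, adjusted p = 0.0260) and Sdpr by 0.17 (exact permutation test, p = 0.0303, adjusted p = 0.0303). These 3 calls lay close to the threshold and were lost when some mice were left out, where fewer splits were possible and the size of the change stayed similar. The exact permutation test of Ptrf had an adjusted p of 0.0524 without HFD mouse 1 and of 0.0514 without HFD mouse 3 or 4, with changes of -0.19, -0.19 and -0.20. For Ehd2 the exact permutation test gave an adjusted p of 0.0524 without HFD mouse 1 and of 0.0514 without HFD mouse 2, 3 or 4, with changes of -0.14 to -0.16. For Sdpr it gave 0.0524 without HFD mouse 1, 2, 3 or 4 and 0.0556 without HFD + IMC mouse 1, 2, 3 or 6 (exact permutation test, adjusted p), with changes of -0.17 to -0.15.

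**Figure D3:**
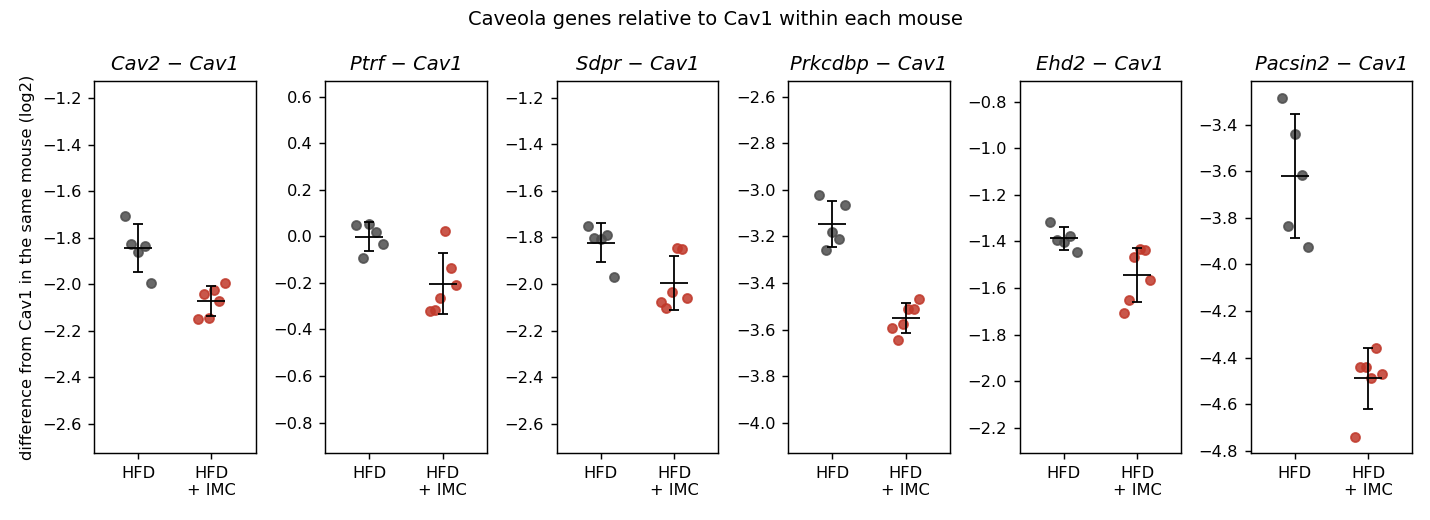
Log2 CPM of each member minus that of Cav1 in the same mouse (vertical axis, log2, the same span in each panel), for HFD control mice (grey, n = 5) and IMC-treated mice (red, n = 6), with the mean ± SD as bar and whiskers. The groups are apart for Cav2, Prkcdbp and Pacsin2, narrowly so for Cav2, and overlap for Ptrf, Sdpr and Ehd2.

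The genes most like Cav1 over the 11 mice were found by the root mean square (RMS) difference of log2 CPM after centring each gene, which is small when a gene follows Cav1 in size as well as in shape. The nearest of the 12786 other genes were Palmd, which encodes palmdelphin, with an RMS difference of 0.0419, and Fgfrl1, an FGF receptor without a kinase domain, with 0.0426. Abcd2, a peroxisomal transporter of very long chain acyl-CoA, followed with 0.04997. Npr3, the clearance receptor for natriuretic peptides, had 0.0538 and Ghr, the growth hormone receptor, had 0.0552. Their log2 fold changes were 0.81 for Palmd, 0.84 for Fgfrl1, 0.87 for Abcd2, 0.87 for Npr3 and 0.83 for Ghr. Without HFD + IMC mouse 1, only 3 of these 5 genes stayed among the nearest 5. The points share their libraries and scaling, and the measure includes the difference between the groups.

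The members ranked behind many other genes by this measure. Ehd2 was nearest to Cav1 at rank 81, then Sdpr at 129, Cav2 at 166, Ptrf at 185 and Prkcdbp at 621. Pacsin2 stood at rank 6531, near the middle of all genes. When each gene was centred within its group, so that only mouse-to-mouse variation remained, Prkcdbp was at rank 68 and Cav2 at rank 69, followed by Ehd2 at 147, Sdpr at 245 and Ptrf at 283. Prkcdbp thus followed Cav1 closely from mouse to mouse within a group, although its rise between the groups was smaller. The RMS difference of Prkcdbp to Cav1 within groups was 0.07, beside a median of 0.19 over all genes.

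A list of paralogs and raft genes was examined beside the members. Of its 12 genes, 9 were listed in the table and Cav3, Murc and Pacsin1 were not, of which Cav3 and Murc (Cavin4) are the muscle forms. With IMC, 1 of the 9 was called higher and 1 lower, beside 20% and 21% of all genes, and the median log2 fold change was 0.10. Ehd4, an endosomal relative of Ehd2, fell by 0.40 ± 0.08 (SE) on the log2 scale without overlap of the groups (limma, Benjamini-Hochberg adjusted p = 0.00177). Flot1, a scaffold protein of flat rafts, was higher by 0.24 ± 0.09 (SE), close to the threshold (limma, Benjamini-Hochberg adjusted p = 0.0447). The call of Flot1 was lost without HFD mouse 1, 2, 3 or 4 or without HFD + IMC mouse 1, 3 or 6, with log2 fold changes of 0.18 to 0.26 (limma, Benjamini-Hochberg adjusted p = 0.0506 to 0.120). It was also lost with total-count scaling and in limma without a trend (Benjamini-Hochberg adjusted p = 0.0720 and 0.0636).

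The closest relatives of the members did not all move with them. Ehd1 had a log2 fold change of 0.17 ± 0.07 (SE), Ehd3 of 0.21 ± 0.11 and Pacsin3 of 0.57 ± 0.24, and none of these passed the test. Flot2 was at 0.10 ± 0.05, Ror1 at -0.34 ± 0.16 and Flna, an actin crosslinker that anchors caveolae, at -0.18 ± 0.10. Dnm2, the dynamin that pinches vesicles off the membrane, was at -0.05 ± 0.05, the same size as Pacsin2. With single mice left out, Ehd1 was called without HFD mouse 5 or HFD + IMC mouse 2, Pacsin3 and Flot2 without HFD + IMC mouse 4, and Ror1 without HFD + IMC mouse 4 or 5 (limma, Benjamini-Hochberg adjusted p = 0.00883 to 0.0439). Without HFD + IMC mouse 4, 3 of the 9 genes were called higher and 2 lower.

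A second list held 17 genes whose products are placed at caveolae or act with them, and all 17 were listed. With IMC 8 of them were called higher and 3 lower, beside 20% and 21% of all genes, with a median log2 fold change of 0.17. Slc2a4, the insulin-responsive glucose transporter, rose by 1.26 ± 0.15 (SE) on the log2 scale from a mean of 4.96 log2 CPM. Insr, the insulin receptor, rose by 0.36 ± 0.08 and its substrate Irs1 by 0.34 ± 0.09. Rhoq, which encodes the GTPase TC10, rose by 0.30 ± 0.06. Among genes of lipid droplet and surface proteins, Lipe (hormone-sensitive lipase) rose by 0.90 ± 0.12, Plin1 (perilipin-1) by 0.84 ± 0.11 and Aoc3 (an amine oxidase of the adipocyte surface) by 0.79 ± 0.10. For these genes the Benjamini-Hochberg adjusted p by limma was between 6.07e-05 and 0.00861. Slc2a4, Lipe and Plin1 are also in the list of adipocyte markers below.

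Nos3, the endothelial nitric oxide synthase that binds caveolin-1, rose by 0.83 ± 0.17 (SE) on the log2 scale, with means of 4.97 ± 0.41 log2 CPM (SD, n = 5) and 5.80 ± 0.27 (SD, n = 6) and no overlap of the groups (limma, Benjamini-Hochberg adjusted p = 0.00217). Of the 17 genes 3 were called lower, beside 21% of all genes. Prkcd, the kinase that gave Prkcdbp its name, fell by 0.52 ± 0.10, and the Src-family kinase Fyn fell by 0.38 ± 0.08. Trip10 (CIP4), an F-BAR partner of TC10, fell by 0.23 ± 0.06. With limma, the Benjamini-Hochberg adjusted p was 0.00135 for Prkcd, 0.00169 for Fyn and 0.00556 for Trip10.

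The lipid transporters in this list did not follow the caveola genes. Cd36, a fatty acid translocase placed in caveolae, was at 12.70 ± 0.10 log2 CPM without IMC (SD, n = 5) and 12.74 ± 0.06 with IMC (SD, n = 6). Its log2 fold change was 0.03 with a 95% interval of -0.19 to 0.25. Scarb1, the HDL receptor SR-BI, was at 0.03 ± 0.05 (SE) and Slc27a1, a fatty acid transport protein, at 0.05 ± 0.07. Prkca was at 0.17 ± 0.07, Src at 0.01 ± 0.09 and Cbl at -0.22 ± 0.14, and none of these 6 genes was called. Prkca alone of them was called when a mouse was left out, without HFD mouse 4 or HFD + IMC mouse 6 (limma, Benjamini-Hochberg adjusted p = 0.0486 and 0.0285).

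**Figure D4:**
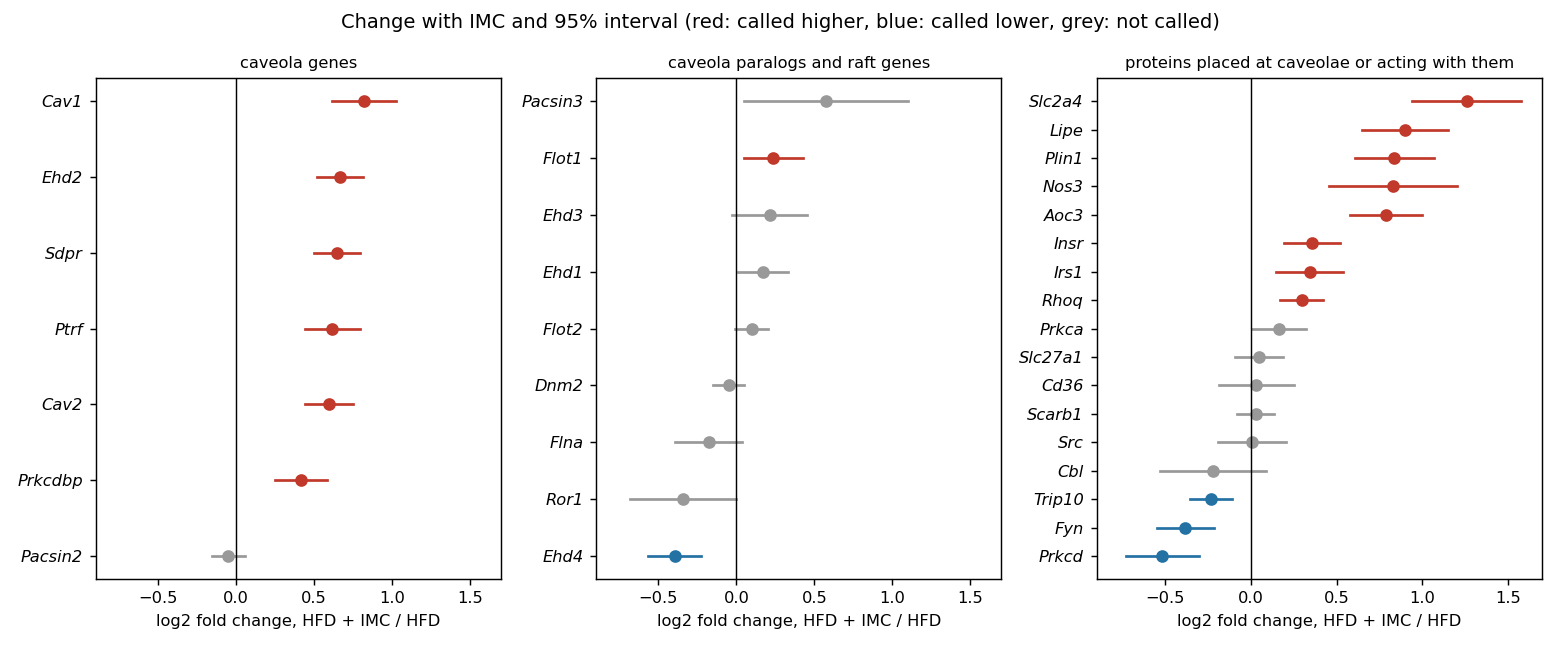
Log2 fold change of HFD + IMC over HFD (horizontal axis) with its 95% interval from limma, for the caveola genes, their paralogs and raft genes, and proteins placed at caveolae or acting with them. Red marks genes called higher, blue genes called lower and grey genes not called. Of the caveola genes 6 of 7 are red, of the paralogs and raft genes 1 of 9 and of the third list 8 of 17.

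Caveola genes are expressed by several cell types of WAT, and in bulk tissue fewer cells of a type and less RNA per cell cannot be told apart. Markers of these cell types are therefore given beside the members, and their counts are to be read against the 20% of all genes called higher and the 21% called lower. All 10 adipocyte markers were listed and all 10 were called higher in IMC-treated mice, with a median log2 fold change of 0.89, from 0.70 for Pparg to 1.78 for Cfd (adipsin). Their summed level was 13.16 to 13.68 log2 CPM in HFD control mice and 14.15 to 14.46 in IMC-treated mice. Adipoq (adiponectin) rose by 1.18 ± 0.15 (SE), Cidec by 0.87 ± 0.11 and Lep (leptin) by 1.04 ± 0.11 on the log2 scale, beside 0.82 for Cav1. These markers fit the labelled tissue, and none of them was at 0 in any mouse.

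Endothelial cells also carry many caveolae. Of 10 endothelial markers 2 were called higher, the same share as the 20% among all genes. These were Cdh5 (VE-cadherin), by 0.41 ± 0.10 (SE), and Egfl7, by 0.34 ± 0.12 on the log2 scale. The median of the 10 markers was 0.21. Their summed level was 9.03 to 9.45 log2 CPM in HFD control mice and 9.22 to 9.74 in IMC-treated mice, and the groups overlapped. The count was 5 without HFD mouse 2 and 1 without HFD mouse 1, 3 or 4 or HFD + IMC mouse 2, 3, 5 or 6, and it was also 1 with total-count scaling and in limma without a trend. Pecam1, with 0.18 ± 0.10, and Plvap, a component of the diaphragm of endothelial caveolae, with 0.03 ± 0.15, were not called.

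Of 9 smooth muscle and pericyte markers 8 were listed, and 4 were called higher, with a median of 0.42. Cspg4 (NG2) rose by 0.96 ± 0.16 (SE), Acta2 by 0.71 ± 0.13, Rgs5 by 0.62 ± 0.15 and Notch3 by 0.35 ± 0.12 on the log2 scale. The others were not called, with Myh11 at 0.48 ± 0.32, Myl9 at 0.29 ± 0.22, Tagln at 0.01 ± 0.18 and Pdgfrb at -0.12 ± 0.06. With total-count scaling 1 marker of this list was called lower. The summed level of the 8 markers was 8.63 to 9.16 log2 CPM in HFD control mice and 9.20 to 9.57 in IMC-treated mice. Macrophage markers moved the other way, with 9 of 10 called lower and a median of -0.62. Trem2 fell by 0.79 ± 0.10 and Cd68 by 0.61 ± 0.10 on the log2 scale. Their summed level was 13.54 to 13.98 log2 CPM in HFD control mice and 12.62 to 13.31 in IMC-treated mice.

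Of 8 progenitor and fibroblast markers 5 were called lower, led by Pi16, which fell by 0.69 ± 0.16 (SE) on the log2 scale, and the median was -0.31. The count was 3 without HFD mouse 3. Their summed level was 13.21 to 13.55 log2 CPM in HFD control mice and 12.88 to 13.23 in IMC-treated mice. Of 6 mesothelial markers 5 were listed, and Wt1 fell by 0.57 ± 0.16. Of 8 skeletal muscle markers 3 were listed, and Myh2 rose by 3.02 ± 0.22 (SE) and Acta1 by 1.23 ± 0.15 on the log2 scale. Acta1 was at no more than 49.2 CPM in any mouse. Myh2 was near the floor, between 0.39 and 6.46 CPM, with a mean of -1.10 log2 CPM in HFD control mice. With genes of a mean log2 CPM under 1 left out, only 1 gene of this list was called higher. Des, the remaining gene of this list, was at -0.20 ± 0.08 and was not called, but it was called lower without HFD mouse 3 or HFD + IMC mouse 6 and with total-count scaling. None of 6 T cell and B cell markers was listed.

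**Figure D5:**
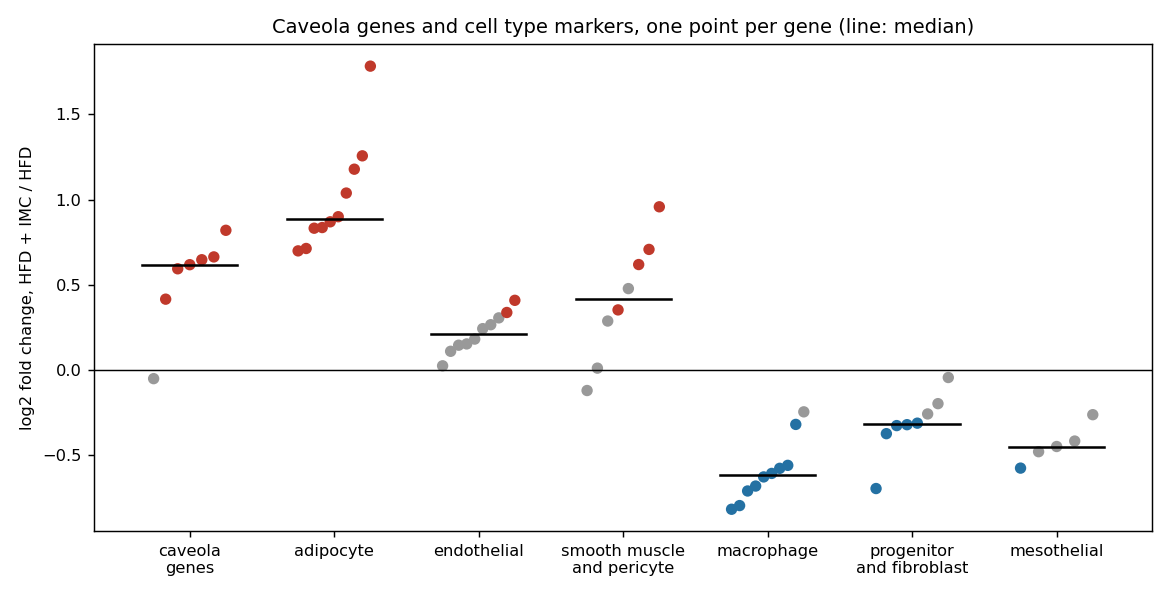
Log2 fold change of HFD + IMC over HFD (vertical axis) of each caveola gene and of each listed marker of the cell types named below the axis. A point is a gene, red for called higher, blue for called lower and grey for not called, and the line is the median of the list. The median of the caveola genes (0.62) lies between those of adipocyte markers (0.89) and smooth muscle and pericyte markers (0.42), and macrophage markers lie below 0.

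The members were also set against the marker lists within each mouse, as the log2 CPM of the member minus the mean log2 CPM of the list. Relative to adipocyte markers, Cav1 was at 1.65 to 2.02 in HFD control mice and at 1.52 to 1.76 in IMC-treated mice, so the groups overlapped and the mean difference was -0.19. Prkcdbp, at -1.54 to -1.16 in HFD control mice and -2.11 to -1.75 in IMC-treated mice, had a mean difference of -0.59 relative to these markers, with no overlap. On the same scale the mean difference was -0.42 for Cav2, -0.39 for Ptrf, -0.36 for Sdpr and -0.35 for Ehd2, and their groups overlapped. These differences were described and not tested.

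Relative to endothelial markers the direction was the opposite for the members that rose. Cav1 was at 4.71 to 4.89 in HFD control mice and at 5.12 to 5.78 in IMC-treated mice, higher by 0.60 without overlap. Ehd2 was higher by 0.45 relative to these markers, Ptrf by 0.40 and Cav2 by 0.38, also without overlap but with narrower gaps. For Ptrf the highest HFD control mouse was at 4.909 and the lowest IMC-treated mouse at 4.911, so these groups almost touched. Sdpr was higher by 0.43 and Prkcdbp by 0.20, with overlapping groups. For Pacsin2 the mean difference was -1.06 relative to adipocyte markers and -0.27 relative to endothelial markers. The part of cell type composition in the changes of the members was not tested.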

How the data were processed

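RNA from gonadal WAT was sequenced in 11 mice, 5 on the HFD and 6 on the HFD with IMC, and groups were taken from the sample labels. The authors trimmed reads with Trim Galore, checked them with FastQC, aligned them to mm10 with STAR and UCSC annotation, counted them per gene, removed genes with low counts, scaled libraries by the upper quartile and calculated log2 CPM with edgeR. They deposited 1 table of log2 CPM for 12787 genes. Its other columns hold the authors' own log2 fold change, mean log2 CPM, likelihood-ratio score, p-value and FDR, as deposited, and were not used. Members were matched by symbol, all 7 under the symbols given here.

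limma 3.58.1 in R 4.3.3 (lmFit, eBayes with trend) was run on the deposited values with group as the only factor. p-values were adjusted by Benjamini-Hochberg over all 12787 genes, and the threshold was 0.05. Differences from Cav1 were tested by exact permutation (two-sided, 462 splits), adjusted over 6 differences. Within 0.01 of a read, 100% of values corresponded to whole reads, which gave the depth and the alternatives by voom, total-count and median-of-ratios scaling. Intervals cover the spread between mice, and reads are not independent molecules. Exon lengths, pooled over the annotated transcripts of a gene, came from GENCODE annotation of the same assembly for 12710 genes (99.4%). The authors counted reads with UCSC annotation, so these lengths are approximate. Positions and promoters came from RefSeq (GRCm38.p6). Genes named are the 7 members, up to 8 called genes of each list by smallest p, other list genes whose role was needed, and the 5 genes most like Cav1. 1 gene of the lists is not reported here and was left out of their counts. The members and lists were chosen with earlier results of these data known. The limma, permutation and read recovery steps were tested on simulated data.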

Additional observations from a re-analysis of the deposited data

Results flagged for a closer look

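In 88 groups of values (a gene or a difference from Cav1 in 1 group of mice), the highest or lowest mouse was compared with its neighbour by Dixon's criterion at the 95% level, and 7 values stood apart. Chance gives about 1 in 20 such groups. No member stood apart in its own log2 CPM. Among differences from Cav1, HFD mouse 5 had the lowest value of Sdpr minus Cav1 in its group, -1.97, with -1.81 in the next mouse. HFD + IMC mouse 1, which had the highest Cav1, had the lowest Pacsin2 minus Cav1, -4.74, with -4.49 in the next mouse. The same mouse had the highest level of 2 of the genes most like Cav1, Npr3 at 10.53 log2 CPM (next mouse 10.31) and Ghr at 10.14 (next mouse 9.89). HFD + IMC mouse 3 had the highest Ehd3, 4.83 log2 CPM, above 4.58 in the next mouse. Slc27a1 was lowest in HFD mouse 1, at 8.48 log2 CPM, below 8.72 in the next mouse. Trip10 was lowest in HFD + IMC mouse 4, at 5.16 log2 CPM, below 5.40 in the next mouse.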

How the results depend on the processing

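The fold changes of the members were recomputed under 19 alternatives: each of the 11 mice left out, another scaling or added constant, a filter on low levels, voom on recovered reads, and limma without a trend or with robust moderation. Under each of them 6 members were called higher and 0 lower. The log2 fold change of Cav1 ranged from 0.75 to 0.87 and that of Prkcdbp from 0.38 to 0.48, and the largest adjusted p of the 6 genes was 0.00434 (limma, Benjamini-Hochberg, Prkcdbp with a mouse left out). The number of genes called ranged from 4299 to 5468. With total-count scaling 2201 genes were called higher and 3267 lower, against 2556 and 2680 in the report, and the median log2 fold change of all genes was -0.06. The differences from Cav1 with a mouse left out ranged from -0.25 to -0.18 for Ptrf, -0.21 to -0.15 for Sdpr and -0.18 to -0.12 for Ehd2, and their calls were lost for some mice, where fewer splits were also possible. Among genes that were not called, the sign changed with total-count scaling for Scarb1 (-0.0041) and Src (-0.025). With a mouse left out, Slc27a1 ranged from -0.0061 to 0.076 and Src from -0.036 to 0.089. Alternatives for the gene lists and for likeness to Cav1 were added after the values were seen. No paired analysis was possible because the labels give the groups no shared mouse numbers. With 5 and 6 mice, the permutation tests give no p below 0.00216.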
